A study of Homo sapiens with 6 samples.

Results

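The sestrins and the GATOR amino acid sensors were followed in K562 cells with a hairpin against a long noncoding RNA. The set held 10 genes, chosen by name: SESN1, SESN2 and SESN3 (the sestrins), CASTOR1 (an arginine sensor), DEPDC5, NPRL2 and NPRL3 (the subunits of GATOR1), and MIOS, WDR24 and SEH1L (subunits of GATOR2). They were 10 of the 19053 genes with a symbol in the deposited table, and their isoforms filled 39 of its 109018 rows. Each gene's value was the sum of the reads on all of its rows.

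K562 is a human chronic myeloid leukemia line that carries the BCR-ABL fusion and has erythroid features. Cells of the sh-IUR-5 group expressed a short hairpin RNA from the pSIH vector against lncRNA-IUR-5, which the sample labels name lncRNA-IIRX, and sh-luc cells carried the same vector with a hairpin against luciferase, a gene that human cells do not have. RNA sequencing was done on 3 libraries of each group. Both groups were stably infected cells of this line, and 1 hairpin was used for each group. The RNA of each group came from independent groups of cells, per the methods of the study, and the labels do not state this. Whether these groups of cells were separate infections is not given in the sources used here. The labels number library 1 of each group as one series and libraries 2 and 3 as another, so both series hold both groups. Within each group library 1 stood further from the other 2 (chi-square per gene 4.45 to 7.80) than those did from each other (1.9 to 2.59).

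Sestrins are stress-induced proteins that restrain mTORC1, the kinase complex that drives cell growth when amino acids are plentiful. GATOR1 switches off the Rag GTPases that bring mTORC1 to the lysosome, and GATOR2 opposes GATOR1. SESN2, which binds leucine, and CASTOR1, which binds arginine, hold GATOR2 in check when their amino acid is scarce. SESN3 is the gene that lies opposite the lncRNA-IUR locus.

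The reads counted per library ran from 21023739 to 31481109, and those of the sh-IUR-5 libraries exceeded those of every sh-luc library. Levels are given below as CPM, reads scaled to library size with TMM factors, these factors being 0.911 to 0.923 in sh-luc and 1.06 to 1.14 in sh-IUR-5. With library totals alone the median log2 fold change of all features tested was 0.27 in place of 0.022, so changes are relative to the bulk of the transcriptome. All 10 K562 markers examined were above 1 RPKM in every library. Their summed level did not overlap between the groups, at 19900 to 22300 RPKM in sh-luc and 16100 to 16700 RPKM in sh-IUR-5. Most of that sum was the globin genes HBG1 (6150 to 8670 RPKM) and HBG2 (8960 to 12400 RPKM), so it says little of the other markers. These RPKM carry no TMM factors, and 39.5% of all features did not overlap between the groups in CPM. The 3 T cell markers and the 3 monocyte and granulocyte markers were below 1 RPKM in every library, and of the B cell markers MS4A1 was at 0. EPCAM and KRT19, markers of epithelium, were expressed in every library (85.5 to 195 RPKM). The summed epithelial and fibroblast list spanned 233 to 279 RPKM in sh-luc and 227 to 286 RPKM in sh-IUR-5, COL1A1 and COL1A2 stayed at or below 0.136 RPKM, and the part of the marker genes in the results was not tested. The table has protein-coding rows, and lncRNA-IUR-5 itself was not analysed here.

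The 10 genes stood at very different levels in the control cells. Levels per length were RPKM summed over isoform rows, 5 for NPRL3, 7 for SEH1L, 13 for DEPDC5 and 1 each for SESN2, WDR24 and CASTOR1. How reads fitting several isoforms were assigned is not given, and whether the order depends on row number was not tested. Per length, NPRL3 (47.8 ± 8.97 RPKM, SD, n = 3) and SEH1L (37.7 ± 2.73 RPKM) stood highest in sh-luc, and their libraries overlapped. NPRL2 followed at 17.0 ± 1.44 RPKM, then SESN2 at 8.46 ± 0.105 RPKM. The libraries of WDR24 (7.68 ± 0.327 RPKM) and SESN1 (7.33 ± 0.722 RPKM) overlapped, so their order was not resolved. MIOS (2.60 ± 0.0517 RPKM) and DEPDC5 (1.97 ± 0.194 RPKM) were lower, and CASTOR1 (0.909 ± 0.436 RPKM) and SESN3 (0.433 ± 0.0616 RPKM) overlapped at the bottom. The sensor of arginine and the sestrin beside the lncRNA were thus the 2 members with the fewest reads, 10 to 57 and 10 to 15 per library.

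Between the groups, SESN1 was higher in sh-IUR-5, and NPRL2 and WDR24 were lower. These were 3 of the 10 genes, where 25.9% of the 39137 features tested passed the same threshold (edgeR quasi-likelihood test, Benjamini-Hochberg adjusted p under 0.05), 12.7% higher and 13.1% lower. Among the 8801 genes with a symbol and a mean of at least 100 reads, a level that 8 of the 10 members reached, 49.4% passed. The same 3 genes were the ones whose groups did not overlap in CPM, which held for 39.5% of all features, 20.5% higher and 19.0% lower. The median log2 fold change of the 10 genes was 0.11, beside 0.022 over all features. In bulk RNA, fewer cells of a type and less RNA per cell cannot be told apart. For 3 libraries against 3, the smallest p an exact permutation test can give is 0.1.

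**Figure D1:**
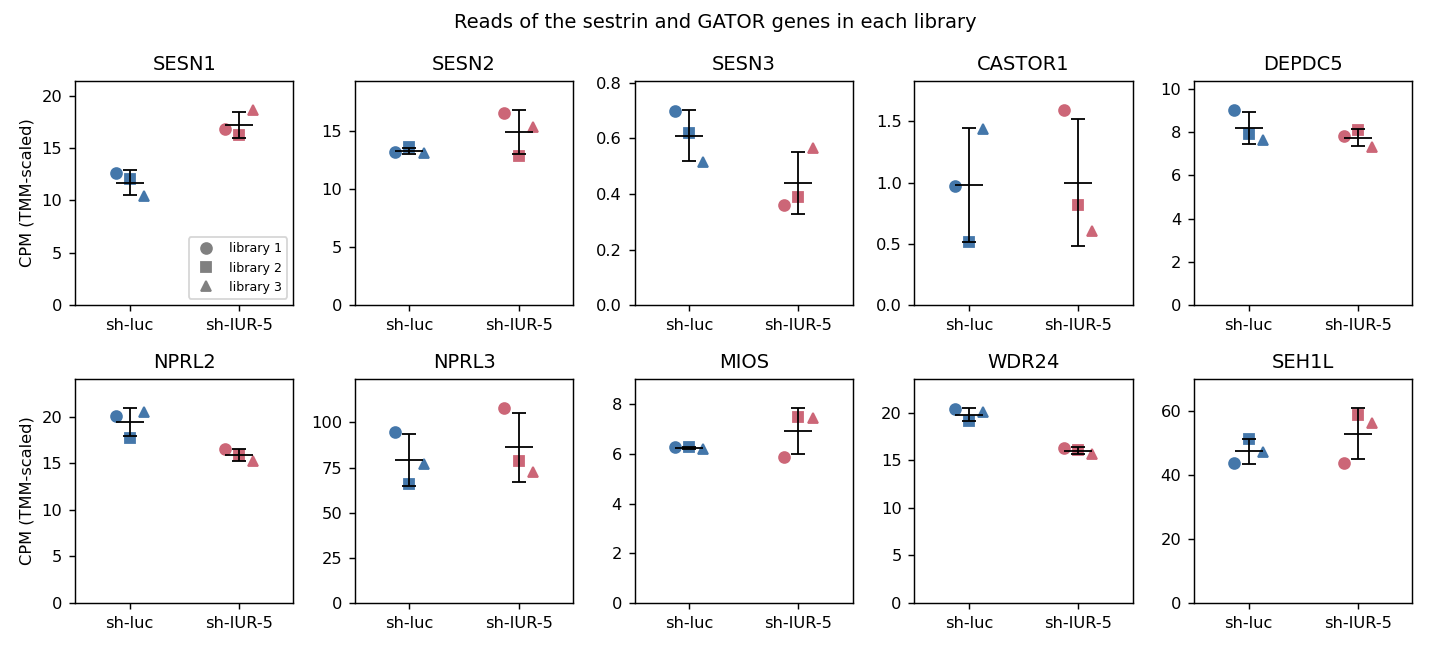
Level of each of the 10 genes (y axis, TMM-scaled CPM, each panel on its own scale from 0) in the 3 sh-luc (blue) and 3 sh-IUR-5 (red) libraries, with horizontal lines at the mean and bars for 1 SD. The groups stand apart for SESN1, NPRL2 and WDR24 and overlap for the other 7 genes.

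SESN1, a sestrin induced by FOXO factors, gave the largest change that passed the test. It stood at 12.6, 12.0 and 10.4 CPM in sh-luc libraries 1, 2 and 3, and at 16.8, 16.2 and 18.6 CPM in the sh-IUR-5 libraries. Every sh-IUR-5 library lay above every sh-luc library, with means of 17.2 ± 1.26 and 11.7 ± 1.18 CPM (SD, n = 3). The log2 fold change was 0.55 (SE 0.11, 95% interval 0.33 to 0.78, edgeR adjusted p = 0.000599), or 1.47-fold. It was 0.41 in the libraries numbered 1 and 0.63 in those that the labels number as series 2.

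All 3 isoform rows of SESN1 had positive values, and 2 of them passed alone. Rows of a gene share coding sequence, so their values are not separate results, here or for the genes below. In a fit of single rows, of which 23.4% passed, 11.4% higher, the row of 1656 coding bases had a log2 fold change of 0.66 (edgeR adjusted p = 0.00063) and that of 1479 coding bases 0.61 (edgeR adjusted p = 0.00241). The row of 1281 coding bases gave 0.31 (edgeR adjusted p = 0.123). SESN1 has a GC content of 40.6%, and fold changes over the table ran with GC content, from a median log2 of 0.17 in the fifth of genes with the lowest GC content to -0.21 in the fifth with the highest. With each library's trends on GC content and length removed, the SESN1 difference was 0.37 (edgeR adjusted p = 0.0167).

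SESN2, a leucine-binding sestrin, stood at 13.2, 13.6 and 13.1 CPM in sh-luc and at 16.6, 12.9 and 15.4 CPM in sh-IUR-5. Library 2 of sh-IUR-5 was below all controls and the other two were above them, so the groups overlapped. Its log2 fold change of 0.17 was not past the threshold (95% interval -0.051 to 0.40, edgeR adjusted p = 0.26).

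SESN3 was barely detected in either group. The sh-luc libraries held 15, 12 and 10 reads of it, and the larger sh-IUR-5 libraries 13, 10 and 15. On the CPM scale these were 0.697, 0.618 and 0.515 against 0.362, 0.388 and 0.567. The third sh-IUR-5 library lay within the range of the controls. The log2 fold change of -0.49 had a 95% interval from -1.21 to 0.22 (edgeR adjusted p = 0.322), which spans 0.432 to 1.17 times the control level, so a difference was not detectable at this depth. The SESN3 rows ranged from a log2 fold change of -1.49 to 0.067, and none passed.

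**Figure D2:**
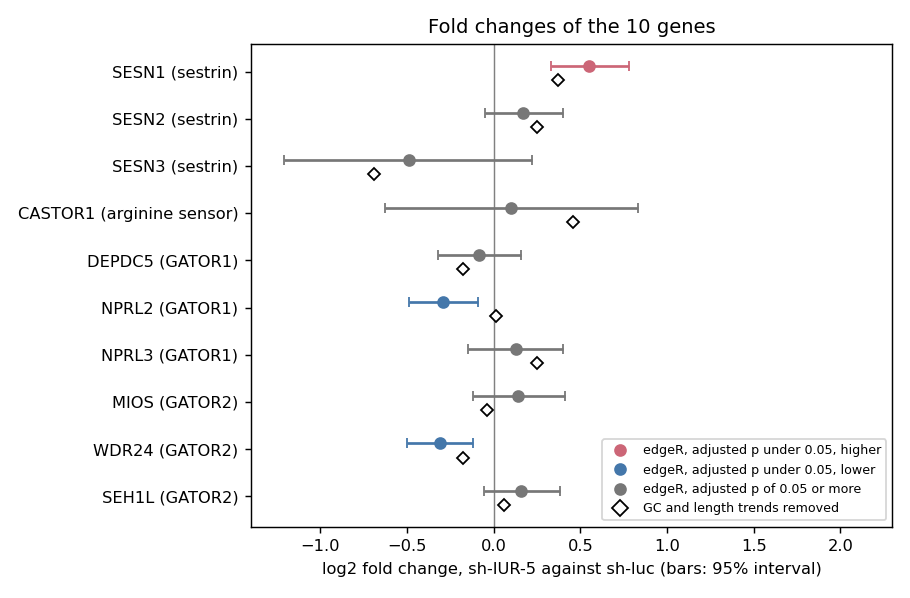
Log2 fold change of each gene, sh-IUR-5 against sh-luc (x axis), with bars for the 95% interval of the edgeR fit and open diamonds for the value after removal of GC content and length trends. The intervals of SESN1 (0.33 to 0.78), NPRL2 (-0.49 to -0.09) and WDR24 (-0.50 to -0.12) leave out 0, and the NPRL2 diamond sits at 0.013.

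The place of SESN3 beside the target bears on what its reads can show. The 21-base target of the sh-IUR-5 hairpin is printed here because it fixes where the hairpin acts, with capitals for the 7 bases that pair with bases 2 to 8 of a perfectly matched guide strand.
sh-IUR-5 target: gctagtatcaggtTTAAATAg
It matched hg38 once, on the plus strand at chr11:95232933-95232953. GENCODE release 44 places LNCRNA-IUR (ENSG00000245552.9) on the plus strand at chr11:95150539-95234391 with 20 transcripts, and 1 of them has the target in an exon. SESN3 (ENSG00000149212.12) runs the other way, from 95232541 down to 95165513 on the minus strand, and the target lies 392 bases upstream of that start, or 458 bases upstream of the RefSeq start. Of the 9212 exonic bases of the lncRNA gene, 98 overlap SESN3 exons and 0 overlap the SESN3 coding sequence. The rows have coding lengths, so reads of these annotated lncRNA exons would not match the SESN3 rows, whichever strand was counted. The SESN3 coding parts do lie within the span of the lncRNA gene, between its exons. Whether reads of unspliced lncRNA were counted on them was not tested.

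**Figure D3:**
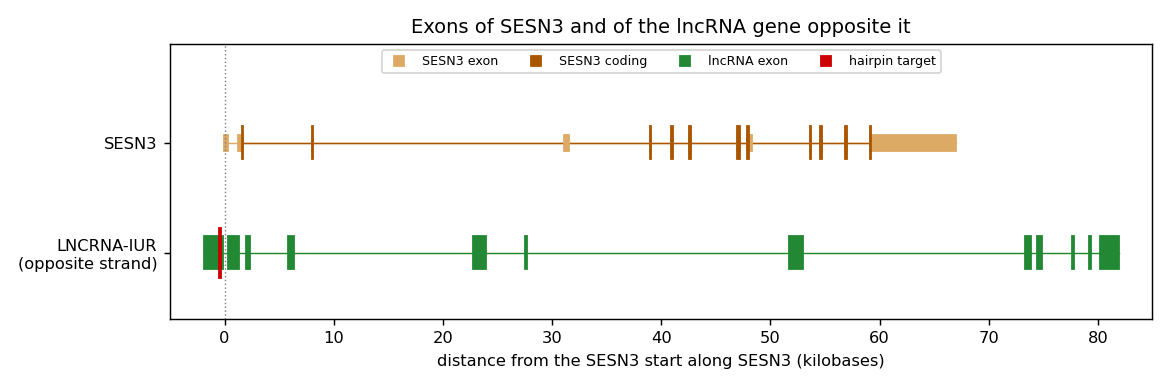
Exons of SESN3 (orange, coding parts darker) and of the lncRNA gene on the opposite strand (green) by distance from the SESN3 RefSeq start (x axis, kilobases, positive along SESN3). The hairpin target (red) sits 458 bases before that start, in a lncRNA exon, and no lncRNA exon meets a coding part of SESN3.

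The letters of the target were also looked for in the members' own transcripts. The 7-base site occurred in at least 1 protein-coding transcript of 5 of the 10 genes (SESN1, SESN2, SESN3, DEPDC5 and MIOS), and in 33.3% of the 19676 protein-coding genes searched. The longest run that a member shared with the target was 8 bases, and with its reverse complement 10 bases, in MIOS, followed by 9 bases in SESN3. Of the 5 genes with the site, 1 passed the test, SESN1, which was higher. NPRL2 and WDR24, the genes that were lower, did not hold the site.

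The sestrin promoters differed in base composition, and are shown because the hairpin target lies upstream of the SESN3 start. These are the 250 bases before each RefSeq gene start (GRCh38.p14), on the gene's strand, with capitals for GC boxes (GGGCGG or its reverse complement CCGCCC).
SESN1, chr6:109094847-109095096, minus strand: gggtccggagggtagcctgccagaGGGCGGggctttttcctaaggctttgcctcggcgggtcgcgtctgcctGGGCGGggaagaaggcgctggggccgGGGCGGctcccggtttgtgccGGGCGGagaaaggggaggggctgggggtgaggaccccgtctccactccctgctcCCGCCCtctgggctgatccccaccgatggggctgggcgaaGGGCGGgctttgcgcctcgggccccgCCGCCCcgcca
SESN2, chr1:28259268-28259517, plus strand: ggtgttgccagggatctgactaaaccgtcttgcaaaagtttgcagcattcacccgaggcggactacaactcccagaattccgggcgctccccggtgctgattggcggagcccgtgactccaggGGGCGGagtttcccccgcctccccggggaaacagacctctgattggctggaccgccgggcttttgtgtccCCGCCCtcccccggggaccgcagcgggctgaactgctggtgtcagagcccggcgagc
SESN3, chr11:95232476-95232725, minus strand: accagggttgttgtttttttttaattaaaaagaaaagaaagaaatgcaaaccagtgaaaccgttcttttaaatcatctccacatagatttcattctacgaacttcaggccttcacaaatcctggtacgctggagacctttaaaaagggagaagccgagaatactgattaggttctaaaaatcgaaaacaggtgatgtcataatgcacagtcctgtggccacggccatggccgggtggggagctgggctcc
The SESN3 window was 42.8% GC, below the 62.8% to 76.4% of the other 8 members with a promoter in the table (9 of 10 matched, WDR24 being the exception). The SESN3 window also holds the GENCODE start of SESN3 (95232541) and part of a lncRNA exon, so it is not purely sequence upstream of the gene. GC boxes numbered 7 in SESN1, 2 in SESN2 and 0 in SESN3. The motif occurred in 7 of the 9 members, NPRL3 and SESN3 lacking it, and in 42.6% of 35116 promoters. A FOXO motif (GTAAACA, 3.0% of promoters) and a joint C/EBP and ATF motif (TGATGCAAT, 0.2% of promoters), both searched on both strands, were found in none of these windows.

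CASTOR1, the arginine sensor, gave no resolved difference. It stood at 0.975, 0.515 and 1.44 CPM in sh-luc and at 1.59, 0.816 and 0.605 CPM in sh-IUR-5. The highest and the lowest library belonged to different groups, and the ranges overlapped almost throughout. On the log2 scale the difference was 0.10 (95% interval -0.63 to 0.83, edgeR adjusted p = 0.87), and it became -0.46 without sh-IUR-5 library 1 and -0.19 without sh-luc library 2.

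Within GATOR1, NPRL2 was lower in sh-IUR-5, while DEPDC5 and NPRL3 did not pass. NPRL2, a subunit first described as a candidate tumor suppressor, stood at 20.1, 17.7 and 20.5 CPM in sh-luc and at 16.5, 15.9 and 15.2 CPM in sh-IUR-5. The groups did not overlap, with means of 19.4 ± 1.52 and 15.9 ± 0.622 CPM (SD, n = 3). The log2 fold change was -0.29 (SE 0.097, 95% interval -0.49 to -0.09, edgeR adjusted p = 0.0307), or 0.817-fold. All 3 of its rows had negative values, from -0.33 to -0.28, and 1 passed alone.

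The NPRL2 call was not stable. With the GC content and length trends removed its log2 fold change was 0.013 (edgeR adjusted p = 0.934), and NPRL2 has a GC content of 53.2%. It also missed the threshold without sh-luc library 1 (edgeR adjusted p = 0.0827), without sh-luc library 3 (0.122), without sh-IUR-5 library 2 (0.0753) and without sh-IUR-5 library 3 (0.0926), at log2 values from -0.30 to -0.25.

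NPRL3, whose introns hold the distal enhancers of the alpha-globin genes, had the highest summed RPKM of the GATOR1 genes. It stood at 94.7, 66.1 and 76.8 CPM in sh-luc and at 108, 78.5 and 72.5 CPM in sh-IUR-5. Library 1 was the highest of each group, and the groups overlapped. Its log2 fold change was 0.13 (95% interval -0.15 to 0.40, edgeR adjusted p = 0.532), and became -0.074 without sh-IUR-5 library 1. Its 5 rows moved alike, from 0.091 to 0.15. DEPDC5, the GATOR1 subunit that contacts the Rag GTPases, spanned 7.63 to 9.01 CPM in sh-luc and 7.30 to 8.08 CPM in sh-IUR-5. Its log2 fold change was -0.084 (95% interval -0.32 to 0.16, edgeR adjusted p = 0.647), and its 13 rows split into 5 above and 8 below 0, none past the threshold.

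Within GATOR2, WDR24 was lower and the other 2 subunits did not pass. WDR24, a beta-propeller subunit, stood at 20.4, 19.1 and 20.1 CPM in sh-luc and at 16.3, 16.1 and 15.7 CPM in sh-IUR-5. The lowest control exceeded the highest sh-IUR-5 library, and the means were 19.8 ± 0.696 and 16.0 ± 0.346 CPM (SD, n = 3). The log2 fold change was -0.31 (SE 0.092, 95% interval -0.50 to -0.12, edgeR adjusted p = 0.0174), or 0.808-fold. WDR24 has the highest GC content of the 10 genes, 63.4%, and with the GC content and length trends removed the value was -0.18 (edgeR adjusted p = 0.109). The call was also lost without sh-luc library 3 (edgeR adjusted p = 0.0572), without sh-IUR-5 library 2 (0.0509) and without sh-IUR-5 library 3 (0.0541), at log2 values from -0.32 to -0.30.

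SEH1L, a subunit that GATOR2 shares with the nuclear pore, stood at 43.7, 51.4 and 47.1 CPM in sh-luc and at 43.9, 58.9 and 56.2 CPM in sh-IUR-5. Libraries 2 and 3 of sh-IUR-5 were above all controls and library 1 was within their range. The log2 fold change was 0.16 (95% interval -0.058 to 0.38, edgeR adjusted p = 0.29), and without sh-IUR-5 library 1 it was 0.28 and passed (edgeR adjusted p = 0.0192). MIOS, another beta-propeller subunit, stood at 6.19 to 6.28 CPM in sh-luc and at 5.88, 7.50 and 7.45 CPM in sh-IUR-5, so library 1 of sh-IUR-5 was below all controls and the other two were above them. Its log2 fold change was 0.14 (95% interval -0.12 to 0.41, edgeR adjusted p = 0.455).

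Shares within each group of genes do not depend on how libraries were scaled. They still carry each library's trends on GC content and length, and they rest on sums over isoform rows. SESN1 has a GC content of 40.6% and SESN2 of 59.6%. With those trends removed their log2 fold changes were 0.37 and 0.25, beside 0.55 and 0.17 in the main fit. Shares were not computed with the trends removed. SESN1 made up 47.2%, 45.3% and 42.8% of the summed RPKM of the 3 sestrins in sh-luc and 49.1%, 54.3% and 53.1% in sh-IUR-5. SESN2 was arranged the other way, with 52.2% ± 2.42 in sh-luc and 46.4% ± 2.93 in sh-IUR-5 (SD, n = 3), and SESN3 held 2.66% ± 0.254 and 1.43% ± 0.265. None of these 3 pairs of groups overlapped (exact two-sided permutation test, p = 0.1 each). In CPM, an unlike measure, 39.5% of all features did not overlap. The SESN3 share rests on 10 to 15 reads per library, and its groups overlapped in CPM. The shares of a library sum to 100%, so they are not separate results, and the SESN2 level itself was not lower in sh-IUR-5 (13.3 and 14.9 CPM in sh-luc and sh-IUR-5). SESN2 held the larger share in all controls, and SESN1 in 2 of the 3 sh-IUR-5 libraries, the exception being library 1 at 49.1% against 49.7%.

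The GATOR subunits were compared in the same way, and the 39.5% of all features not overlapping in CPM stands beside these shares too. In GATOR1, NPRL3 held 71.3% ± 2.45 in sh-luc and 76.3% ± 3.15 in sh-IUR-5, and NPRL2 held 25.7% ± 2.27 and 20.8% ± 2.73 (SD, n = 3). The groups did not overlap for either gene (exact two-sided permutation test, p = 0.1), and overlapped for DEPDC5, at 2.98% and 2.85%. In GATOR2, WDR24 held 16.0% ± 1.45 in sh-luc and 12.2% ± 1.92 in sh-IUR-5 without overlap (exact two-sided permutation test, p = 0.1). SEH1L, at 78.5% and 82.0%, and MIOS, at 5.44% and 5.77%, overlapped. These shares also carry the GC content and length trends, WDR24 having a GC content of 63.4% and SEH1L of 38.3%. With those trends removed, no GATOR subunit of the set passed the threshold, NPRL2 being at 0.013 and WDR24 at -0.18 on the log2 scale.

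**Figure D4:**
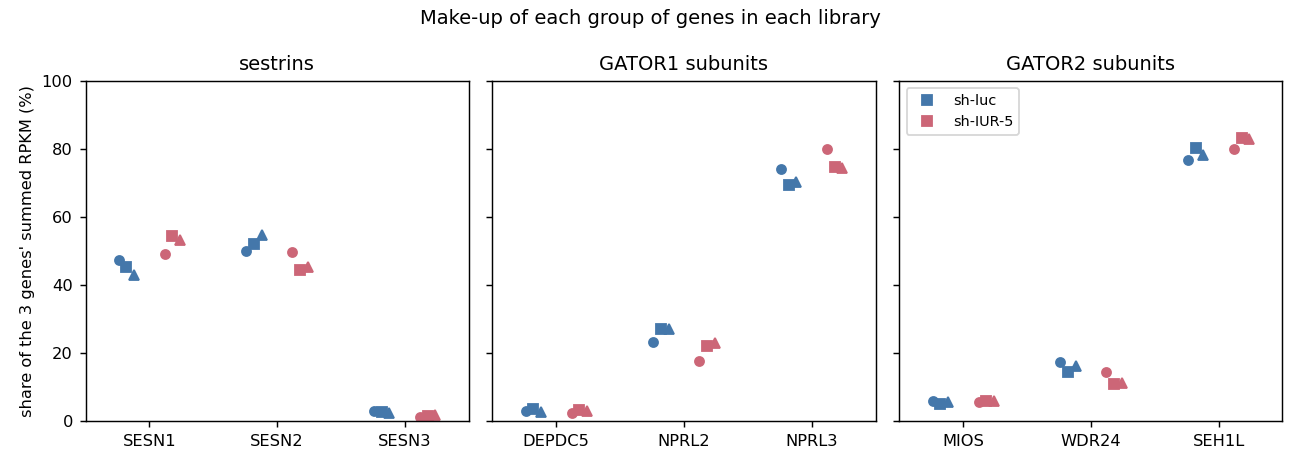
Share of each gene in the summed RPKM of its 3-gene group (y axis, %) in each sh-luc (blue) and sh-IUR-5 (red) library, with circles, squares and triangles for libraries 1, 2 and 3. SESN1 has mean shares of 45.1% in sh-luc and 52.2% in sh-IUR-5, SESN2 52.2% and 46.4%, and the shares of NPRL2 and WDR24 in the controls all exceed those in sh-IUR-5.

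The rest of the amino acid sensing route was described from lists of related genes. Of all features, 12.7% were called higher and 13.1% lower. Of genes with a symbol and a mean of at least 100 reads, 49.4% were called. The counts of each list are to be read beside these shares, and no test over a list was run. Of 7 other GATOR and KICSTOR genes tested, 0 were higher and 2 lower by edgeR: KPTN, a KICSTOR subunit, at a log2 fold change of -0.80 (edgeR adjusted p = 1.23e-06), and SEC13, shared by GATOR2 and the nuclear pore, at -0.33 (edgeR adjusted p = 0.00598). KPTN stood at 63.7 ± 2.03 CPM in sh-luc and 36.6 ± 2.74 CPM in sh-IUR-5, and with the GC content and length trends removed it remained lower at -0.45, whereas SEC13 was at -0.028. The median of the list was -0.051. At an unadjusted p under 0.05, 3 genes of this list were higher, and DESeq2 and limma each called 0 higher and 2 lower.

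Of the 13 Rag, Ragulator and partner genes, 4 were higher and 4 lower, with a median log2 fold change of 0.056. The folliculin partners FNIP2 (1.13, edgeR adjusted p = 1.99e-05) and FNIP1 (0.81, edgeR adjusted p = 6.78e-06) rose. LAMTOR2 and LAMTOR4, subunits of the Ragulator scaffold on the lysosome, both fell by 0.86 on the log2 scale (edgeR adjusted p = 4.21e-07 and 4.88e-07). These 4 kept their call with the trends removed, at 0.97, 0.61, -0.28 and -0.29. Over the list, 3 of the 4 higher and 2 of the 4 lower calls held in that fit. LAMTOR3 (0.22) lost its call, and LAMTOR1 (0.13) and LAMTOR5 (0.087) turned positive and were not called, these 3 being named after their values were seen.

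Of the 14 genes of the mTOR complexes, the TSC complex and mTOR substrates, 4 were higher and 4 lower, with a median of 0.046. RICTOR, the defining subunit of mTORC2, had the largest value, from 3.66 ± 0.533 to 9.06 ± 0.865 CPM (log2 fold change 1.31, edgeR adjusted p = 9.39e-07). MTOR itself was higher at 0.50 (edgeR adjusted p = 0.000158) and RPTOR, the mTORC1 scaffold, at 0.37 (edgeR adjusted p = 0.00873). EIF4EBP1, a translation repressor that mTORC1 inactivates, was lower at -0.49 (edgeR adjusted p = 0.000892), and stood at 0.086 with the trends removed. None of the 4 lower genes of this list kept its call in that fit, and all 4 higher genes did.

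Among the AMPK subunits, 5 of 7 had enough reads to be tested, and 3 were higher and 0 lower by edgeR. They were PRKAB2 at a log2 fold change of 1.26, PRKAA1 at 0.45 and PRKAB1 at 0.29, and all 3 kept their call with the trends removed, at 1.08, 0.26 and 0.44. Of all features 25.9% were called, and 49.4% of genes with at least 100 reads. The list median of 0.33 is the value of PRKAG2, named here for that reason, which had 1 to 6 reads per library. The count of lower genes was also 0 at an unadjusted p under 0.05, by DESeq2 and by limma. AMPK is the energy-sensing kinase that sestrins are known to bind. Of 6 factors known to induce sestrins, 2 were higher and 1 lower. FOXO3 was at 0.52 (edgeR adjusted p = 0.0251) and FOXO4 at 0.29 (edgeR adjusted p = 0.0438), and ATF4, the amino acid stress factor that induces SESN2, was at -0.49 (edgeR adjusted p = 0.00027). With the trends removed FOXO3 missed the threshold (0.39, edgeR adjusted p = 0.119), ATF4 stood at -0.24 (edgeR adjusted p = 0.0292), and DESeq2 called 0 of this list higher.

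Of 6 genes that supply or charge leucine and arginine, 0 were higher and 1 lower by edgeR: ASL, the last enzyme of arginine synthesis, at -0.60 (edgeR adjusted p = 3.03e-05), and at -0.36 with the trends removed. At an unadjusted p under 0.05, 3 of these genes were higher, and DESeq2 and limma each called 0 higher. Of all features 25.9% were called, and of genes with a mean of at least 100 reads 49.4%. Over these 6 lists together, with 7, 13, 14, 5, 6 and 6 genes tested in turn, 13 genes were higher and 12 lower. With library totals alone these counts were 27 and 5, and with the trends removed 14 and 5.

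**Figure D5:**
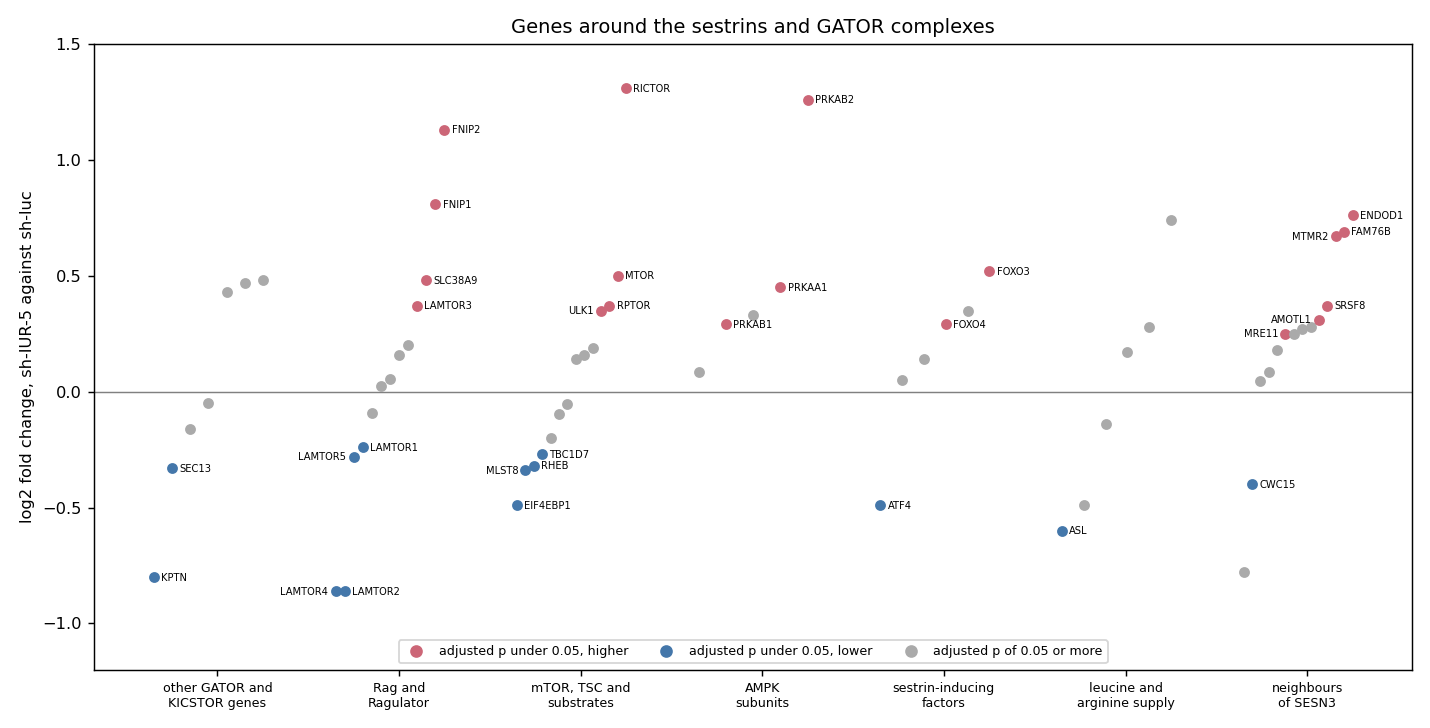
Log2 fold change, sh-IUR-5 against sh-luc (y axis), of each tested gene in 6 lists of related genes and among the neighbours of SESN3 (x axis), in red or blue where edgeR's adjusted p was under 0.05. RICTOR (1.31), PRKAB2 (1.26) and FNIP2 (1.13) stand highest, and LAMTOR2 and LAMTOR4 (both -0.86) lowest.

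Genes around SESN3 were examined because SESN3 itself had few reads. Of 19 protein-coding neighbours 14 could be tested, and 6 were higher and 1 lower, with a median log2 fold change of 0.26. Beside these 7 of 14 stand the 25.9% of all features called, 12.7% higher and 13.1% lower. The 49.4% of genes with a mean of at least 100 reads was nearer, but that is an unlike set. PIWIL4 held only 2 to 7 reads per library and KDM4D 24 to 67. The calls were mostly higher, and a local cause was not tested. The nearest by gene start were ENDOD1, which encodes an endonuclease-domain protein, and SRSF8, a splicing factor gene. ENDOD1 went from 6.30 ± 0.26 to 10.6 ± 0.679 CPM (SD, n = 3), a log2 fold change of 0.76 (edgeR adjusted p = 4.91e-05), and SRSF8 was at 0.37 (edgeR adjusted p = 0.0182). FAM76B (0.69) and the phosphatase gene MTMR2 (0.67) were also higher, and the splicing factor gene CWC15 was lower (-0.40). With the GC content and length trends removed, 3 of the 6 higher genes (ENDOD1, FAM76B and MTMR2) and CWC15 (-0.21) kept their call, and SRSF8 did not (0.26, edgeR adjusted p = 0.119).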

How the data were processed

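RNA-seq libraries of 3 sh-luc and 3 sh-IUR-5 samples were grouped by their labels. Base calling used CASAVA 1.8, and the submitters' processing notes also name Trimmomatic 0.32, Bowtie2 2.1.0 and SAMtools 0.1.19 with build hg38. The deposited read counts are the authors' raw numbers for each RefSeq protein accession. The deposited RPKM equals reads per row length and library total. The authors' own comparison of the groups (pooled reads and RPKM, fold change, p and q) was not used. How reads fitting several isoforms were assigned is not given in the sources used here. Row lengths were multiples of 3 in 99.8% of rows, so they were read as coding lengths.

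Accessions were matched to symbols with the RefSeq gene list of GRCh38.p14 (64.7% of rows, 83.9% to 84.8% of reads). Accessions absent from that list were kept as features of their own, so a gene's sum may miss rows. Reads were summed per gene, and features with at least 10 reads in total were tested with edgeR 4.0.16 in R 4.3.3 (TMM scaling, quasi-likelihood test, two-sided, Benjamini-Hochberg adjustment over all features, threshold 0.05). CPM and shares are means ± SD of 3 libraries, and fold changes carry 95% intervals of the fit, unadjusted for the number of genes. An exact permutation test, two-sided, was run on single values as well. Trends of log2 values on GC content and length were estimated per library with mgcv 1.9.3 and entered as offsets in the edgeR fit where stated, over the 12885 of 13065 gene features with a GC content. The test was checked on simulated counts.

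The members, the gene lists and the tests were chosen with earlier results of these data known. Named genes are all 10 members, up to 4 genes of each list with the largest change past the threshold, and the 2 nearest neighbours of SESN3, with others said to be named after their values were seen. The result for 1 listed gene is not reported here. Alternatives were DESeq2 1.42.0 and its size factors, library totals, other minimum counts, 1 accession per gene, limma 3.58.1, a replicate block, the series in the labels, and each library left out.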

Additional observations from a re-analysis of the deposited data

How the results depend on the processing

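Of the 20 alternatives run for each member, SESN1 stayed higher and past the threshold in all 20 (log2 fold change 0.36 to 0.80). SESN3 at 1 accession per gene was at 0.079, and DESeq2 gave it no adjusted p. With library totals only, SESN2 (0.42), NPRL3 (0.38), MIOS (0.39) and SEH1L (0.40) passed as higher, DEPDC5 turned to 0.16, and NPRL2 (-0.045) and WDR24 (-0.061) lost their calls, so that 5 members were higher and 0 lower. The whole table then had 10820 genes or features higher and 2098 lower, against 4981 and 5142 with TMM scaling, and the pathway lists 27 and 5, against 13 and 12.

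NPRL2 lost its call with 1 accession per gene (-0.32, 1 member then lower) and among genes with a GC content only (-0.24, 1 member then lower), an alternative chosen after seeing the data, in which 2664 genes were higher and 2273 lower because fewer features were tested. With GC content and length trends removed, NPRL2 was at 0.013, MIOS at -0.038 and WDR24 at -0.18, 1 member was higher and 0 lower, 2258 genes were higher and 1672 lower, and 5 pathway genes were lower. In series 2 only, CASTOR1 was at -0.46 and SEH1L at 0.22, which passed, making 2 members higher. The causes of these changes were not tested.

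Leaving out 1 library at a time gave ranges of -0.46 to 0.47 for CASTOR1, -0.35 to -0.25 for NPRL2, -0.074 to 0.27 for NPRL3, -0.34 to -0.29 for WDR24 and 0.07 to 0.28 for SEH1L, with 1 to 2 members higher and 0 to 2 lower. The lone CASTOR1 reversals were at -0.46 and -0.19, and that of NPRL3 at -0.074.

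Whether the replicate numbers pair the samples was not settled. The deviations of same-numbered libraries from their group means correlated at 0.405, 0.136 and -0.006. Library 1 of sh-luc correlated best with its own number, and sh-luc libraries 2 and 3 did not. Deviations from a mean of 3 libraries depend on one another, so these correlations cannot decide it. Pairs from different label series all correlated negatively (-0.355 to -0.102), and those within series 2 ran from -0.006 to 0.325. With the series as a term no member's call changed (SESN1 0.55, NPRL2 -0.29, WDR24 -0.31), and 6487 features were higher and 6637 lower. A replicate block changed no member's call (SESN1 0.55, NPRL2 -0.29, WDR24 -0.31) and gave 6170 features higher and 6301 lower. With the block and the GC content and length trends removed, NPRL3 passed at 0.25, NPRL2 was at 0.013, MIOS at -0.041 and WDR24 at -0.18, with 2 members higher and 0 lower, and 3029 genes higher and 2209 lower.

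Depth limited SESN3 and CASTOR1, whose 10 to 57 reads per library leave wide intervals.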
